A study of Mus musculus with 28 samples.

Results

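Sox5, Sox6 and Sox9, which encode the SOX transcription factors of the chondrocyte lineage, were followed as named genes through all 3 kinds of data in this series: bulk RNA-seq, single-cell RNA-seq (scRNA-seq) and ATAC-seq, an assay of open chromatin. They are 3 of the 53801 genes listed in the bulk RNA tables, and all 3 were among the 13173 genes that passed the filter on low counts. They were set against 24 cartilage genes described as targets of SOX9, 12 genes of chondrocyte hypertrophy, and 33 genes of partners and upstream signals.

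The study asked how loss of Zmpste24 (Z24), the protease that processes prelamin A, affects skeletal stem and progenitor cells (SSPCs) in mice. All cells carried Ai9, a tdTomato reporter that stays on in cells with past Cre activity and in their progeny, and were sorted from bone without blood or endothelial cells. For bulk RNA-seq and ATAC-seq, growth plate SSPCs (gpSSPCs, Ai9+CD73+) and periosteal SSPCs (pSSPCs, Ai9+Sca1+) of mice aged 20 weeks were compared, with 3 control and 3 conditional knockout (CKO) libraries of each population and assay. For scRNA-seq there was 1 library each of Osx-Cre and Prx1-Cre cells at 8 weeks, of control (Z24 fl/+) and of CKO (Z24 fl/fl) cells at 16 weeks. In the CKO the floxed allele was removed by Prx1-Cre, which is active in early limb mesenchyme, so the deletion is not specific to either population. The genotype field reads PrxCre and Z24 fl/fl for all bulk libraries, and only the titles separate control from CKO. A Z24 fl/fl genotype is also written for both 8-week libraries. The labels do not say whether replicates came from separate animals, so p-values measure only the spread between these samples, which may be technical.

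SOX9 is the factor without which cartilage does not form. It binds pairs of SOX sites in the enhancers of collagen and proteoglycan genes through its high mobility group (HMG) domain and activates transcription. SOX5 and SOX6, the long products of a related gene pair, also carry an HMG domain but no activation domain of their own. They dimerize, bind close to SOX9 and raise its output, and they hold proliferating chondrocytes back from hypertrophy. In the growth plate all 3 factors mark resting and proliferating chondrocytes, and SOX9 is also known from progenitors of the perichondrium and periosteum.

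The 3 genes differ widely in size. In the GENCODE M21 annotation of mm10, Sox5 lies on the minus strand at chr6:143828425-144781977 and spans 953.553 kb with 14 transcripts, and Sox6 lies on the minus strand at chr7:115470872-116038796 and spans 567.925 kb with 16 transcripts. Sox9 lies on the plus strand at chr11:112782224-112787760 and spans 5.537 kb with 1 transcript. From the RefSeq promoters (build GRCm38.p6, 250 bases before to 50 bases after a transcript start) 3 are printed because they differ in the ATAC-seq data. The first, at chr6:143947057-143947356 and so at a start inside the gene, overlapped a peak in 0 of 12 libraries, the second, at chr7:116030998-116031297, lay in a region with a peak in 6 gpSSPC and 3 pSSPC libraries, and the third, at chr7:115824661-115824960, in a region with a peak in 4 gpSSPC and 3 pSSPC libraries. All are on the minus strand and written 5′ to 3′. Capitals mark the letters ACAAT and ACAAAG, short forms of the SOX and the SOX/LEF core, or their reverse complements ATTGT and CTTTGT.
Sox5 promoter: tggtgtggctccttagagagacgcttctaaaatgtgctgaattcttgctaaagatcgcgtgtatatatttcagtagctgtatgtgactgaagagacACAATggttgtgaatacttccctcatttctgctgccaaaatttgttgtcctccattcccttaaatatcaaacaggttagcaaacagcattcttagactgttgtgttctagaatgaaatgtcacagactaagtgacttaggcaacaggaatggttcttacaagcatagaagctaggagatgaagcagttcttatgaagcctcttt
Sox6 promoter, first: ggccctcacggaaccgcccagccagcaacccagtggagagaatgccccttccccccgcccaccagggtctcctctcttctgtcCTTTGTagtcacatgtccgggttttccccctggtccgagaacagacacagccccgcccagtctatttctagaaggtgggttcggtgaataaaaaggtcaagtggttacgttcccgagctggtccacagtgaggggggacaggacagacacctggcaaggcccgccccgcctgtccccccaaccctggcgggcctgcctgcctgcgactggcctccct
Sox6 promoter, second: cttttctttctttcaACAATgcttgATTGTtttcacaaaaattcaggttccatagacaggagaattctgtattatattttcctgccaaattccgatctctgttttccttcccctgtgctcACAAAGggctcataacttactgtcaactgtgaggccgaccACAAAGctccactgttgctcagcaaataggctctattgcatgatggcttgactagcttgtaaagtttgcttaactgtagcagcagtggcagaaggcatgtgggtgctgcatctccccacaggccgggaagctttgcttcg
The Sox5 promoter held ACAAT 1 time. The first Sox6 promoter held ACAAAG 1 time, and the second held both motifs 2 times each. Of 32851 mouse promoters of the same 300 bases, 31.0% held ACAAT and 18.7% held ACAAAG on either strand. Of 22 promoters of 18 target genes, ACAAT was found in 2 (Hapln1 and Papss2) and ACAAAG in 0. A match of these letters is a description of the sequence and not a binding site.

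Before the trio was compared, the labels were checked against the data. Zmpste24 reached 0.8, 15.9 and 16.6 counts-per-million (CPM) in replicates 1, 2 and 3 of control pSSPCs and 0, 7.7 and 7.2 CPM in CKO pSSPCs. In gpSSPCs the values were 4.7, 15.1 and 16.2 CPM in control and 1.1, 8.3 and 7.7 CPM in CKO. Each CKO library was thus below the control library of the same number, although the samples of both genotypes overlapped, and the counts do not show which exons they came from. Ly6a, which encodes the Sca1 antigen of the pSSPC gate, lay between 1187 and 2913 CPM in pSSPC libraries and between 304 and 865 CPM in gpSSPC libraries. Nt5e, which encodes CD73, lay between 44.9 and 55.3 CPM in pSSPC and between 139 and 347 CPM in gpSSPC libraries. Both gate genes thus followed the gates, and as they were used to sort the cells they are no finding between them. The 9 chondrocyte markers, of which Col2a1 or Chad was the most abundant in each library, were all detected in every library. They summed to 5141 to 12113 CPM in pSSPCs and to 23768 to 51199 CPM in gpSSPCs, so the pSSPC libraries also held cartilage transcripts. The 7 osteoblast (OB) markers summed to 5503 to 16334 CPM in pSSPCs and to 22078 to 60871 CPM in gpSSPCs. The 9 markers of periosteal mesenchymal stem cells (PMSCs) summed to 22438 to 47748 CPM in pSSPCs and to 8552 to 37110 CPM in gpSSPCs. Erythroid markers reached 6718 CPM in control gpSSPCs, while endothelial markers stayed at or below 184 CPM and myeloid markers at or below 63.4 CPM in all libraries. The part of these cell mixtures in the results on the trio was not tested.

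Replicates 2 and 3 of each RNA group differed by less than sampling noise and were counted as 1 sample (for genes with 5 to 99 counts, chi-square divided by its degrees of freedom was 0.805 to 0.972), while replicate 1 stood apart (10.2 to 14.2). Over genes with 20 counts or more, replicates 2 and 3 differed by 1.59 to 1.92 on the same scale. Each group thus had 2 samples, and the main test was a fit of all 4 groups with edgeR's quasi-likelihood method, without and with the replicate number as a block, because same-numbered samples deviated together. Library totals lay between 1333260 and 5315709 counts, and the smallest total belonged to replicate 1 of control pSSPCs.

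In control cells all 3 genes were called higher in gpSSPCs than in pSSPCs with the replicate block, and in CKO cells Sox6 and Sox9 were, whereas edgeR called none of them without it. Without the block DESeq2 called Sox6 in control and CKO cells, and edgeR called Sox5 and Sox6 in both when each library was counted as a sample. Sox9 reached 685.0, 286.0 and 275.7 CPM in the control pSSPC libraries and 1744.9, 1043.3 and 1023.9 CPM in the control gpSSPC libraries. Replicate 1 was the highest in both groups, and the lowest gpSSPC library was above the highest pSSPC library. The fold was 2.82 (95% interval, 1.13 to 7.03; log2 fold change 1.49, SE 0.59, n = 2 samples per group). Over all genes the adjusted p of edgeR was 0.71 without the block and 6.9e-05 with it (log2 fold change 1.58, SE 0.24). In bulk samples fewer cells of a type and less RNA per cell cannot be told apart, so these values are levels of the sorted population and not of its chondrocytes.

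Sox6 was higher in gpSSPCs by the largest fold of the trio. It reached 13.0, 9.7 and 10.1 CPM in control pSSPCs and 108.3, 59.4 and 58.8 CPM in control gpSSPCs. The groups were far apart, and behind the pSSPC values stood 16, 31 and 51 counts. The fold was 7.19 (2.69 to 19.2; log2 fold change 2.85, SE 0.63), with an adjusted p of 0.35 in edgeR without the block and 0.0061 with it (log2 fold change 2.79, SE 0.63).

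Sox5 showed the smallest difference of the trio. It reached 51.3, 63.8 and 69.3 CPM in control pSSPCs and 151.1, 163.4 and 165.6 CPM in control gpSSPCs. In contrast to Sox9, its level in replicate 1 was the lowest of each group. The fold was 2.61 (1.29 to 5.27; log2 fold change 1.38, SE 0.45), with an adjusted p of 0.56 in edgeR without the block and 0.042 with it (log2 fold change 1.39, SE 0.40).

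Without the block, edgeR called 0 of 13173 genes in each of the 5 comparisons (0%), whereas 815 genes had an unadjusted p under 0.05 in this one and DESeq2 called 251. The unadjusted counts were 568 for the populations in CKO cells, 29 and 277 for the genotypes in gpSSPCs and pSSPCs, and 125 for the difference between these. With the block, 164 genes were called higher (1.24%) and 312 lower (2.37%) in control gpSSPCs. The samples of gpSSPCs and pSSPCs did not overlap for any member of the trio, and 16.7% of all genes were higher in gpSSPCs in this way.

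In CKO cells each member was again higher in each gpSSPC library than in each pSSPC library. Sox9 reached 626.6, 258.5 and 248.3 CPM in pSSPCs and 1456.1, 1102.9 and 1038.6 CPM in gpSSPCs, a fold of 2.89 (1.16 to 7.22; edgeR's adjusted p of 0.9995 without and 4.4e-05 with the block). Sox6 reached 13.4, 11.9 and 9.7 CPM in pSSPCs and 72.5, 55.0 and 64.2 CPM in gpSSPCs, a fold of 5.59 (2.14 to 14.6; edgeR's adjusted p of 0.56 without and 0.021 with the block). Sox5 reached 78.5, 82.2 and 90.7 CPM in pSSPCs and 141.6, 156.8 and 174.7 CPM in gpSSPCs, a fold of 1.87 (0.934 to 3.74; edgeR's adjusted p of 0.9995 without and 0.34 with the block). The populations did not overlap for any of the 3, and 14.0% of all genes were higher in CKO gpSSPCs in this way. With the block 1.25% of genes were called higher and 1.11% lower. The genotype effect in gpSSPCs minus that in pSSPCs was -0.48 (SE 0.63) for Sox5, -0.36 (SE 0.84) for Sox6 and 0.04 (SE 0.81) for Sox9 on the log2 scale. With the block, 0.0152% of genes had a called positive difference of this kind, and the trio was not among them.

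**Figure D1:**
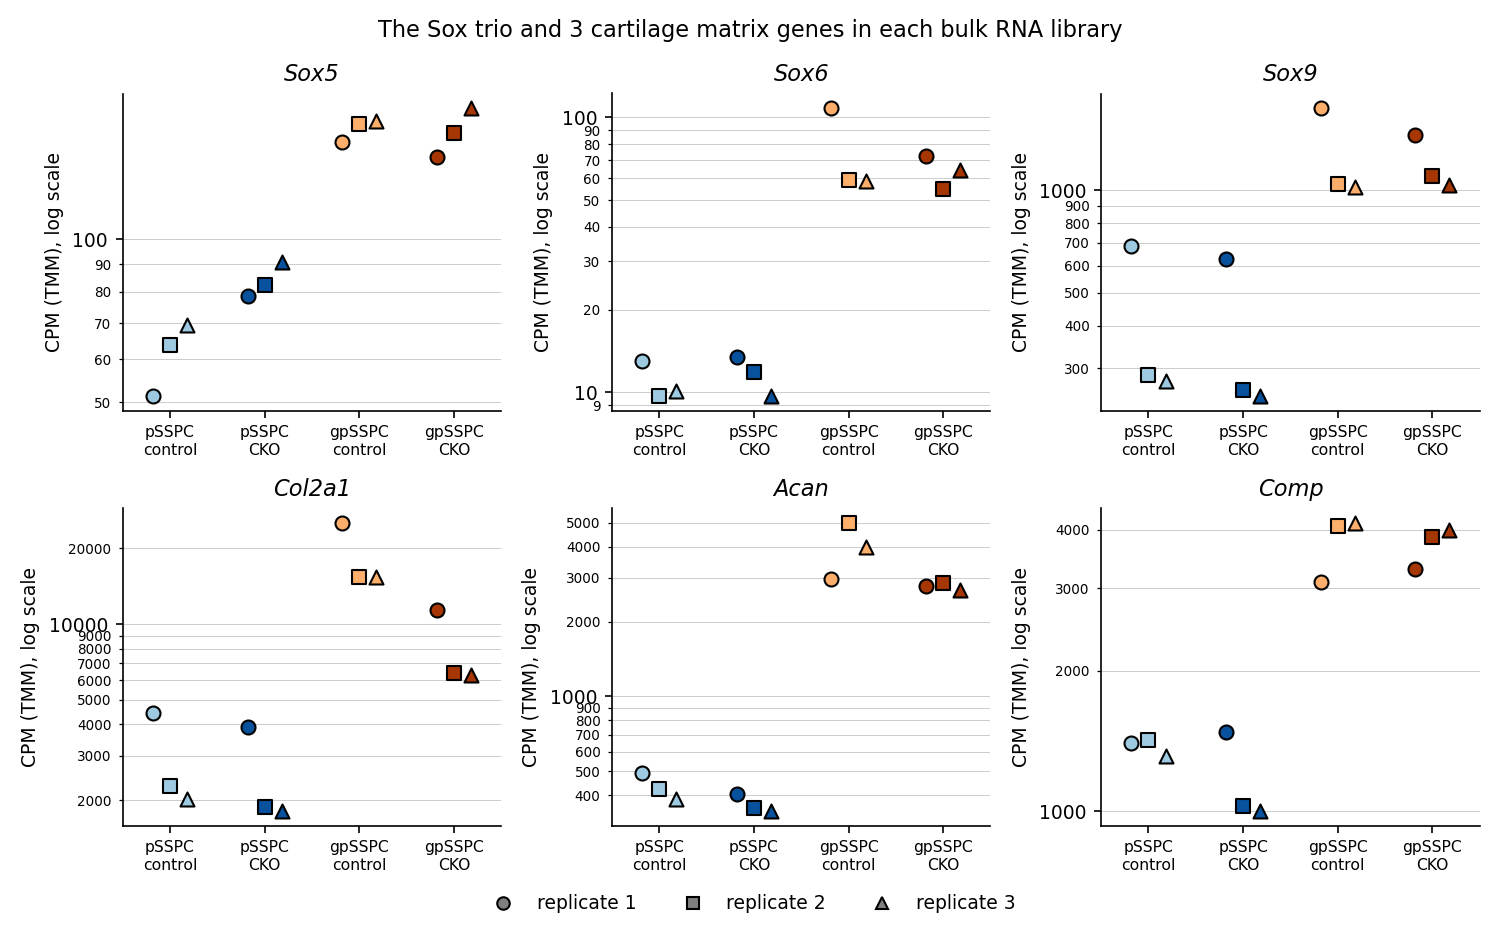
Expression of Sox5, Sox6, Sox9 and the cartilage matrix genes Col2a1, Acan and Comp in each of the 12 bulk RNA libraries, in TMM-normalized CPM on a log scale (vertical axis), by population and genotype (horizontal axis); circles, squares and triangles are replicates 1, 2 and 3. In all 6 panels each gpSSPC library lies above each pSSPC library, and Col2a1 is lower in the CKO than in the control gpSSPCs while Sox9 is not separated.

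No member of the trio passed the test between control and CKO cells. In gpSSPCs the log2 fold change of CKO against control was -0.02 (SE 0.44; 95% interval, -1.01 to 0.97) for Sox5, -0.32 (SE 0.58; -1.62 to 0.99) for Sox6 and -0.13 (SE 0.58; -1.42 to 1.16) for Sox9. With the block the interval for Sox9 narrowed to -0.57 to 0.41. Their CPM values overlapped between the genotypes for each gene. In pSSPCs the changes were 0.46 (SE 0.45; -0.54 to 1.46) for Sox5, 0.05 (SE 0.60) for Sox6 and -0.16 (SE 0.58) for Sox9. Sox5 was higher in each CKO pSSPC sample than in each control sample, as were 10.5% of all genes, and edgeR's adjusted p was 0.83 with the block. Changes within these intervals were not detectable with this number of samples. Marker sums of other cell types separated the genotypes in pSSPCs too. Lymphoid sums were 1.63 to 2.77 CPM in control and 19.8 to 26.3 CPM in CKO libraries. They came from 1 to 3 of 7 markers, led by Ighm or Cd79a, and Cd79b, Cd3e, Cd3d and Ms4a1 were at 0 in each pSSPC library. Tenocyte sums were 1500 to 1537 CPM in control and 1013 to 1238 CPM in CKO libraries. Their part in the Sox5 value was not tested.

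The cartilage targets followed the trio between the populations. Of the 24 targets, all tested, 24 had a positive log2 fold change in control gpSSPCs against pSSPCs, with a median of 1.97 compared to -0.03 over all genes. With the block, 22 rose and 0 fell (not called: Matn1 and Matn4), compared to 1.24% and 2.37% of all genes. Acan, which encodes the proteoglycan aggrecan, reached 491, 423 and 385 CPM in control pSSPCs and 2983, 5005 and 4008 CPM in control gpSSPCs, a log2 fold change of 3.02 (SE 0.40). Col2a1, which encodes the type II collagen chain of cartilage and is the classical SOX9 target, reached 4426, 2268 and 2014 CPM in control pSSPCs and 25294, 15459 and 15459 CPM in control gpSSPCs, a log2 fold change of 2.61 (SE 0.56). Comp, which encodes an oligomeric matrix protein of cartilage and tendon, showed the smallest difference of these 3 (1.36, SE 0.38). The others with the largest change and a call under the block were the collagen genes Col11a2, Col9a3, Col9a1, Col11a1 and Col27a1 and Cnmd, the antiangiogenic chondromodulin, with log2 fold changes between 2.15 and 2.28. In CKO cells 23 of 24 targets had a positive sign (median 1.61), and 21 rose and 0 fell with the block, compared to 1.25% and 1.11% of all genes. The largest changes there beside Acan (2.88, SE 0.40) were in Cnmd, the matrix genes Ucma and Scrg1, the receptor gene Fgfr3, Snorc, which encodes a cartilage transmembrane proteoglycan, and Papss2, an enzyme gene of sulfate donor synthesis (between 2.00 and 2.43).

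Between the genotypes, 3 collagen genes among the targets fell in gpSSPCs with the block, while no trio gene was called. Without overlap of samples, 11.2% of all genes were lower in CKO than in control gpSSPCs. Col2a1 reached 11364, 6425 and 6301 CPM in CKO gpSSPCs, and each of these libraries was below each control library. Its log2 fold change of CKO against control was -1.19 (SE 0.53) without and -1.21 (SE 0.15) with the block, and edgeR's adjusted p was 1.00 and 4.2e-05. With the block, Col9a1 (-1.37, SE 0.24) and Col11a2 (-1.17, SE 0.22), which encode chains of the collagens built into type II fibrils, also fell, with edgeR's adjusted p at 0.0097 and 0.019. In all, 19 of 24 targets had a negative sign (median -0.37), 3 fell and 0 rose with the block, and 0.0380% of all genes fell and 0.0228% rose. Acan (-0.40, SE 0.37) and Comp (0.02, SE 0.37) were not called. In pSSPCs 20 of 24 targets had a negative sign (median -0.20), 0 were called, and with the block 0.0607% of all genes fell and 0.0380% rose. The summed lymphoid (2 tested, 0 called) and tenocyte markers (7 tested, 0 called, with Fmod also among the targets) separated the genotypes there, as given above. Of the 9 PMSC markers, Prg4 rose and Dcn and Igfbp6 fell in CKO pSSPCs with the block. The part of these cells in the signs of the targets was not tested. Summed markers of 3 other cell types separated the genotypes in gpSSPCs, with no single marker called. The 7 endothelial markers (6 tested, 0 called) summed to 43.7, 46.2 and 44.4 CPM in control and 119, 63.0 and 66.1 CPM in CKO libraries, Plvap being the most abundant in 5 of the 6, and Cldn5 and Emcn were at 0 in both replicates 1. The 7 myeloid markers (6 tested, 0 called) summed to 17.5, 38.3 and 35.5 CPM in control and 51.4, 47.1 and 63.4 CPM in CKO libraries, led by S100a9, Cd68 or Fcer1g, and Ptprc was at 0 in 3 of the 6. The 7 tenocyte markers (7 tested, 0 called), led by Fmod or Egr1, summed to 2414 to 2812 CPM in control and 2008 to 2184 CPM in CKO libraries. Fmod, which is also in the target list, gave 1675, 1148 and 1197 CPM of the control sums, so this sum is not separate from the targets. The 7 erythroid markers (5 tested, 0 called) summed to 21.0, 6590 and 6718 CPM in control and 17.7, 2805 and 2994 in CKO libraries. The 7 lymphoid markers (2 tested, 0 called), of which Cd79b, Cd3e, Cd3d and Ms4a1 were at 0 throughout, summed to 0.43, 4.71 and 4.26 CPM in control and 2.28, 16.6 and 17.2 in CKO libraries. Both overlapped between the genotypes, but within same-numbered pairs erythroid sums were lower and lymphoid sums higher in the CKO. Osteoblast sums were also lower, and Schwann cell sums higher, in each pair. Chondrocyte sums, which include Col2a1, were lower in each pair too. They were 51199, 36696 and 36828 CPM in control and 43584, 23768 and 23819 CPM in CKO libraries, led by Col2a1 in control and Chad in CKO. Of the 9 chondrocyte markers 7 had a negative and 2 a positive sign, and with the block 2 fell and 0 rose. The part of these cells in the fall of the collagen genes was not tested. Whether Col2a1 and Sox9 changed unequally was not tested.

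**Figure D2:**
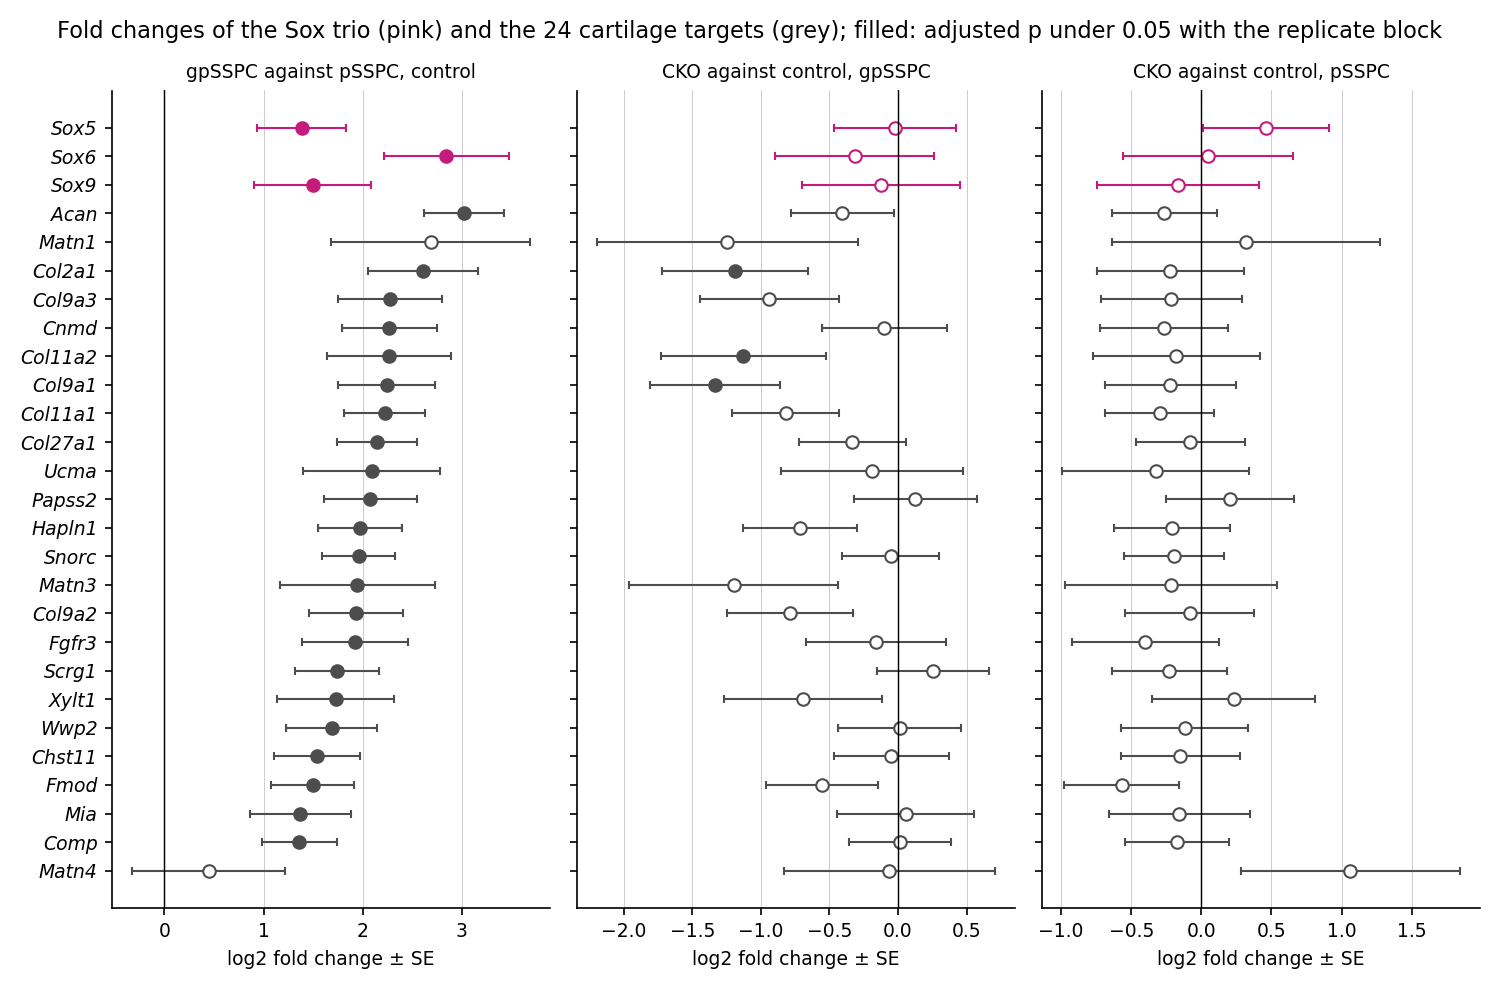
Log2 fold changes (horizontal axis, points with bars of 1 SE, fit without the block, n = 2 samples per group) of the trio (pink) and the 24 cartilage targets (grey), for gpSSPCs against pSSPCs in control cells and for CKO against control in each population. Filled points had an adjusted p under 0.05 in edgeR with the replicate block: all 3 trio genes and 22 targets in the first panel, Col2a1, Col9a1 and Col11a2 in the second and none in the third.

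Genes of hypertrophy, the stage that SOX5 and SOX6 delay, were higher in gpSSPCs too. All 12 were tested, 11 had a positive sign in control cells (median 2.11 compared to -0.03 over all genes), and with the block 9 rose and 0 fell, compared to 1.24% and 2.37% of all genes. Those with the largest changes under the block were Ibsp and Alpl, which encode bone sialoprotein and alkaline phosphatase, Runx3, a transcription factor gene of chondrocyte maturation, and Col10a1, the type X collagen gene of hypertrophic cartilage, with log2 fold changes between 2.38 and 2.65. In CKO cells 8 rose and 0 fell with the block (1.25% and 1.11% of all genes), led by Ibsp (2.65), Panx3 (2.35), a channel gene of hypertrophic cells, Alpl and Runx3 (1.89 each). Col10a1 reached 1037.4, 647.7 and 686.6 CPM in control gpSSPCs and 242.7, 277.6 and 268.3 CPM in CKO gpSSPCs. It was the single hypertrophy gene called in CKO gpSSPCs, where it fell by 1.65 on the log2 scale (SE 0.30; edgeR's adjusted p of 0.013 with the block). Of the 12, 9 had a negative and 3 a positive sign (median -0.21), and with the block 1 fell and 0 rose. Among all genes 0.0380% fell and 0.0228% rose. Alpl, with means of 976 CPM in control and 490 CPM in CKO gpSSPCs, was not called. The osteoblast markers, of which Ibsp and Spp1 are also in the hypertrophy list, moved in the same direction between the populations, and their part in this result was not tested.

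Of the 33 partners and upstream signals, 29 were tested. In control cells 1 rose and 3 fell in gpSSPCs with the block, compared to 1.24% and 2.37% of all genes. Pth1r, the receptor gene through which PTHrP slows chondrocyte maturation, rose by 2.64 on the log2 scale (SE 0.25). Bmp4, a bone morphogenetic protein gene (-2.45, SE 0.57), Fgf18, a growth factor gene that restrains chondrocyte proliferation (-2.09, SE 0.44), and Arid5b, which encodes a coactivator of SOX9 (-2.15, SE 0.47), fell. In CKO cells Pth1r (2.02, SE 0.24) and Foxa3, a forkhead factor gene of hypertrophic chondrocytes (2.03, SE 0.49), rose and 0 fell (1.25% and 1.11% of all genes). With so few called members, these counts say little of the list. Neither population had a called partner between the genotypes.

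Of the other Sox genes, Sox8, a SoxE gene like Sox9, was called in control cells with the block (2.04, SE 0.49; edgeR's adjusted p of 0.011). It reached 77.4, 9.4 and 9.7 CPM in control pSSPCs and 199.0, 64.1 and 61.2 CPM in control gpSSPCs, and replicate 1 of pSSPCs was above replicates 2 and 3 of gpSSPCs. Sox10, also a SoxE gene, the SoxC genes Sox4, Sox11 and Sox12 and the SoxF genes Sox7 and Sox17 were tested and not called in any comparison. Sox13, a further SoxD gene like Sox5 and Sox6, did not pass the filter on low counts.

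scRNA-seq gave the UMIs of the trio by class of sorted cells. The 4 libraries held 785 (Osx-Cre), 999 (Prx1-Cre), 2088 (16-week control) and 2373 (16-week CKO) cell barcodes, and 782, 993, 2068 and 2362 cells passed the study's filter of at least 200 genes. The study's methods pair the smaller cell number of the later time point with Z24 fl/fl and the larger with Z24 fl/+, the reverse of the titles and the genotype field, by which the libraries are named here. Zmpste24 was at 19.5 CPM (14.6 to 25.6, 53 UMIs) in the bone marrow stromal cell (BMSC)-like cells of the 16-week library titled control and at 3.0 CPM (1.37 to 5.69, 9 UMIs) in those of the library titled CKO, and so followed the titles. Any 2 libraries shared between 0 and 10 barcodes. The median cell had 923.5, 1039, 1426.5 and 1272.5 unique molecular identifiers (UMIs). Cells were clustered on variable features that left out 7 genes (the trio, Acan, Ly6a, Nt5e and Zmpste24), and clusters were named from marker lists. An endothelial cluster of 17 cells at 8 weeks and an erythroid cluster of 43 cells at 16 weeks were left out. Shares of UMIs below are of the other classes. Since clusters are built from the same cells, the levels below are descriptions with no test, each library is the only one of its group, and intervals cover counting error only. RNA free in the droplets was not estimated or removed, so a UMI in a cell does not show that the cell expressed the gene.

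At 8 weeks 235 cells formed a chondrocyte-like cluster in which all 9 chondrocyte markers were detected and which was led by Matn3, Mia, Col9a1, Fxyd2 and Col9a2. In the 161 chondrocyte-like cells of the Prx1-Cre library, Sox9 had 472 UMIs, or 882 CPM of the class's UMIs (95% Poisson interval, 804 to 965), and 82.0% of cells had at least 1. Sox5 had 55 UMIs, 103 CPM (77.4 to 134), in 26.1% of cells, and Sox6 had 30 UMIs, 56.0 CPM (37.8 to 80.0), in 15.5% of cells. In the 74 chondrocyte-like cells of the Osx-Cre library the levels were 808 (704 to 922) for Sox9, 88.5 (56.7 to 132) for Sox5 and 44.3 (22.9 to 77.3) for Sox6. The intervals of the libraries overlapped for each gene.

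In the PMSC-, BMSC- and OB-like cells of the Prx1-Cre library the intervals of Sox6 and Sox9 lay below those of chondrocyte-like cells, whereas the interval of Sox5 in PMSC-like cells overlapped. The next highest level of Sox9 in the Prx1-Cre library was 142 CPM (97.2 to 201) in 165 PMSC-like cells, with 10.3% of cells positive at a median of 1120 UMIs. The 75 Osx-Cre cells of that class are not compared with them, because under 4 alternatives for the clustering the class held 2 or 9 Osx-Cre cells, whereas it held 126 to 128 cells of the Prx1-Cre library and more Osx-Cre cells were OB-like. In the 567 BMSC-like cells of the Prx1-Cre library Sox9 was at 16.7 CPM (7.65 to 31.8) and in 1.59% of cells. These cells had a median of 900 UMIs compared to 3209 in the chondrocyte-like cells. Sox6 had 0 UMIs in them, which allows up to 5.58 CPM and a share of up to 0.529% of cells with a UMI. OB-like cells were at 13.4 CPM (2.76 to 39.1) for Sox9, and its 16 pericyte-like cells had 0 UMIs of all 3 genes, which allows up to 189 CPM each, above the chondrocyte-like levels of Sox5 and Sox6. When each cell was thinned to 1000 UMIs, Sox9 was found in 59.7% of 144 chondrocyte-like cells and 10.1% of 99 PMSC-like cells of the Prx1-Cre library, and in 44.8% of 67 chondrocyte-like cells of the Osx-Cre library. In the Prx1-Cre library, 91.5% of Sox9, 90.9% of Sox6 and 75.3% of Sox5 UMIs came from chondrocyte-like cells, which held 34.8% of all UMIs of the named classes. In that library Sox5 thus had the larger share elsewhere, with 53.3 CPM (27.5 to 93.1) in PMSC-like cells, from 12 UMIs. In the Osx-Cre library the shares were 96.1% for Sox9 and 92.3% for both Sox6 and Sox5, at 26.2% of all UMIs, from 26 Sox5 and 13 Sox6 UMIs. The levels outside chondrocyte-like cells were set beside that of Col2a1, an abundant cartilage transcript. In BMSC-like cells Sox9 was at 1.90% (Prx1-Cre) and 1.5% (Osx-Cre) of its chondrocyte-like level and Col2a1 at 1.27% and 1.14%, so Sox9 there was not separated from background. In the Prx1-Cre PMSC-like cells Sox9 was at 16.1%, Sox5 at 51.9% and Sox6, from 1 UMI, at 7.93% of the chondrocyte-like level, and Col2a1 at 2.82%. These levels are of the 165 cells of the main clustering, more than the class held under the 4 alternatives named above.

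At 16 weeks 173 cells formed the corresponding cluster, 123 of the control and 50 of the CKO library. All 9 chondrocyte and 4 PMSC markers were detected in it, and besides Snorc, Mia and Col9a3 it was led by Serpina1a and Serpina1d. Sox9 was at 607 CPM (532 to 688) in 43.9% of the control cells and at 559 (444 to 695) in 38.0% of the CKO cells. Clustered again alone, a step chosen after these values were seen, it fell into 81 chondrocyte-like and 92 PMSC-like cells. The 60 chondrocyte-like control cells had 960 CPM of Sox9 (841 to 1091), 94.7 of Sox5 (60.1 to 142) and 82.4 of Sox6 (50.3 to 127), and Sox9 was detected in 83.3% of them. The 21 chondrocyte-like CKO cells had 866 (684 to 1081), 122 (61.0 to 218) and 44.4 (12.1 to 114) CPM, and Sox9 was detected in 81.0%. All 3 intervals overlapped between the genotypes. Before the split the cluster held 83.6% of Sox9, 87.0% of Sox6 and 55.4% of Sox5 UMIs of the control library, at 11.2% of all UMIs of the named classes. BMSC-like cells held 41.1% of the Sox5 UMIs there, at 76.5% of all UMIs. In the CKO library the cluster held 69.2%, 50% and 29.3% at 4.21% of all UMIs. BMSC-like cells held 63.4% of the Sox5 UMIs at 87.1% of all UMIs, so most Sox5 UMIs of that library lay outside the cluster. The 32 pericyte-like CKO cells had 2 of the 8 Sox6 UMIs of the classes of their library, or 46.6 CPM (5.64 to 168). This interval overlapped with that of the chondrocyte-like CKO cells, and 2 UMIs do not separate expression from background. After the split, Sox5 in BMSC-like cells was at 8.95% (control) and 7.1% (CKO) of the chondrocyte-like level, Sox9 at 1.5% and 1.23%, and Col2a1 at 0.146% and 0.0923%. The PMSC-like cells had 45.8 CPM of Sox9 in control and 54.8 in CKO, from 7 and 3 UMIs, and 0 UMIs of Sox6 in both. BMSC-like cells, one cluster of which was led by the haemoglobin genes Hbb-bs and Hba-a1 and another by interferon response genes, were at 14.4 and 10.7 CPM for Sox9. With 1 library per genotype, the numbers of cells and these levels have no replicate check.

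**Figure D3:**
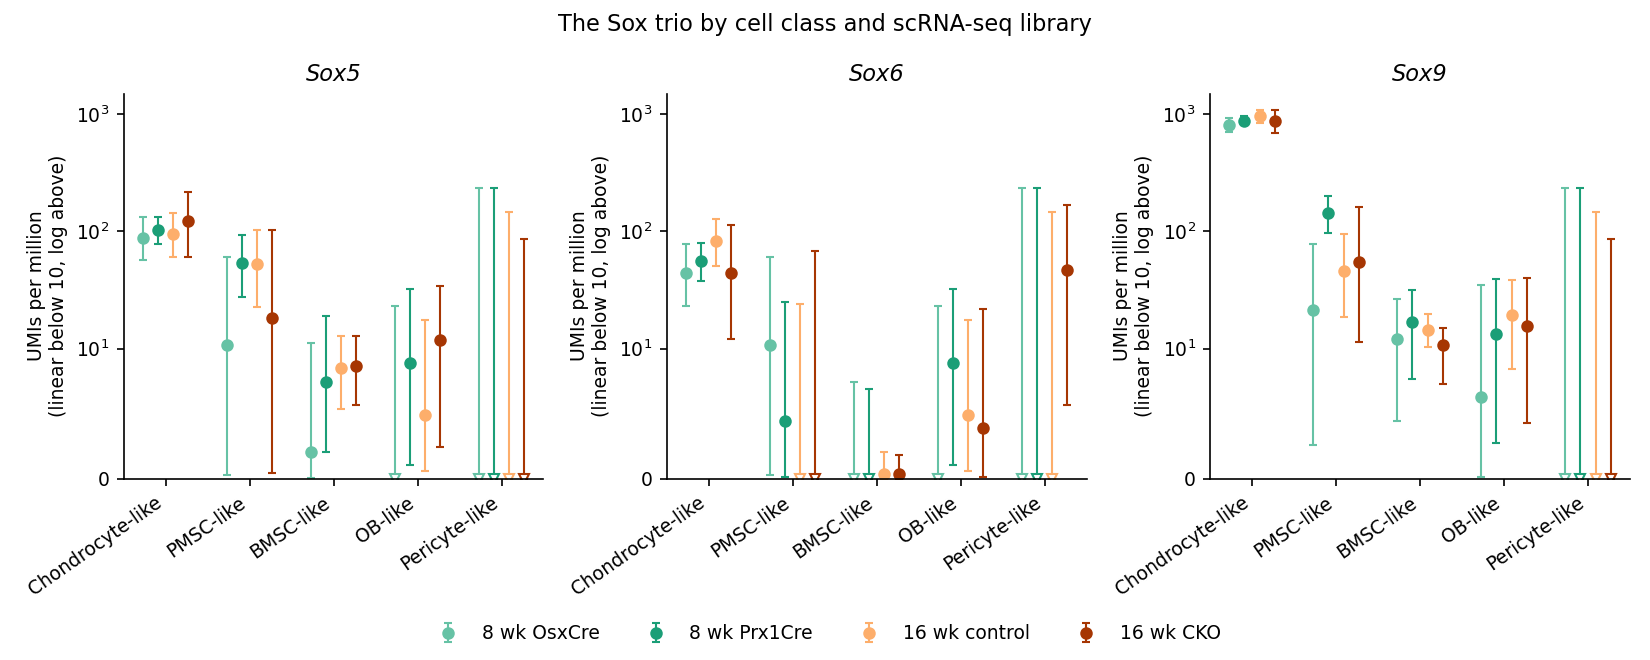
UMI counts in CPM of Sox5, Sox6 and Sox9 (vertical axis, linear below 10 and logarithmic above) in the summed cells of each class (horizontal axis) of the 4 scRNA-seq libraries, with 95% Poisson intervals; open triangles stand for 0 UMIs. At 16 weeks the classes are those after the mixed cluster was clustered again. Sox9 lies between 808 and 960 CPM in chondrocyte-like cells of all 4 libraries and at or below 142 in the other classes shown.

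A UMI of all 3 genes was found in few single cells. Sox5 and Sox6 had only 55 and 30 UMIs in the Prx1-Cre chondrocyte-like cells, so these counts do not measure co-expression. At 8 weeks all 3 were found in 9 of 161 (Prx1-Cre) and 5 of 74 (Osx-Cre) chondrocyte-like cells. Sox9 was found with Sox5 in 37 and 15 of these cells and with Sox6 in 25 and 11. Sox5 was found with Sox6 in 9 and 5. At 16 weeks, after the split, 4 of 60 (control) and 1 of 21 (CKO) had all 3. At least 1 of the 3 was found in 85.1%, 81.1%, 90% and 95.2% of the same cells. Among BMSC-like cells at 8 weeks the latter share was 2.1% in the Prx1-Cre library and 1.3% in the Osx-Cre library. Of the other Sox genes, Sox8 was at 71.0 and 73.8 CPM in the 8-week chondrocyte-like cells, Sox4 at 16.8 and 18.4, Sox10 had 3 and 0 UMIs, and Sox11 and Sox13 had 0 UMIs.

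Over 18 sums of cells by class and library, with 9694 genes, Sox5 and Sox9 had the most similar patterns to each other (Pearson's r of 0.982 on log2 values). After Sox5, the genes most like Sox9 were Hapln1 (0.981), which encodes the link protein of aggrecan, Scrg1 (0.979), Gfpt2 (0.976) and Ucma (0.973). For Sox5 they were, after Sox9, Matn4 (0.978), which encodes a matrilin of the cartilage matrix, Gfpt2 (0.964), Anxa8 (0.963) and Tgfbi (0.960). Sox6, with few UMIs, was most like Cobll1 (0.918), Prkg2 (0.908), which encodes a kinase of growth plate maturation, Nfatc2 (0.898), Asf1b (0.891) and Lingo1 (0.880), and its r with Sox9 was 0.743. The r with Col2a1 was 0.908 for Sox9, 0.860 for Sox5 and 0.634 for Sox6. The sums used the 16-week cluster before its split, and also the PMSC-like Osx-Cre cells, whose number depended on the clustering. They also used the pericyte-like CKO cells, with 46.6 CPM of Sox6 from 2 UMIs, compared to 27.6 in the chondrocyte-like CKO sum. The part of this sum in the values of r for Sox6 was not tested. Sums of 1 library share cells and depth, and these values are descriptions without a p.

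ATAC-seq peaks had been called in each library, between 59186 and 101564 of them, from 12250713 to 46756821 tags after filtering. They were counted in each gene's window, the gene plus 100 kb on each side, and divided by the library's number of peaks. The Sox6 window also holds the coding genes 1110004F10Rik, Gm4353 and Plekha7. In the Sox9 window, 0.945, 0.845 and 0.878 of 10000 peaks lay in the 3 control pSSPC libraries and 0.691, 0.952 and 0.788 in the CKO pSSPC libraries. In gpSSPCs the values were 1.62, 2.15 and 1.70 in control and 2.38, 2.08 and 2.18 in CKO libraries. No gpSSPC library overlapped with a pSSPC library, from 5 to 8 peaks per pSSPC and 15 to 20 per gpSSPC library. The mean was 2.02 ± 0.29 (SD, n = 6) compared to 0.850 ± 0.099 (n = 6), a fold of 2.38 with p = 0.00216 in a two-sided exact permutation test, the smallest it can give, and 0.00906 adjusted over the windows of 20260 coding genes. Windows called higher in gpSSPCs made up 24.7% of all, and 15% were higher without overlap. The test takes the 6 libraries of a population as independent, whereas the control and CKO library of the same number deviated together. With the mean of each such pair, 3 against 3 values and again without overlap, the exact permutation p was 0.1 for Sox9, the smallest possible.

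The Sox6 window had 2.83, 2.03 and 2.64 of 10000 peaks in control and 2.07, 2.62 and 2.56 in CKO pSSPC libraries. In gpSSPCs it had 6.70, 7.1 and 6.36 in control and 7.49, 7.16 and 6.38 in CKO libraries. The mean was 6.87 ± 0.46 compared to 2.46 ± 0.33 (SD, n = 6 each), a fold of 2.79, without overlap and with the same exact permutation p of 0.00216 and adjusted p of 0.00906 (unadjusted p of 0.1 with the means of pairs).

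The Sox5 window did not separate the populations. It had 4.72, 4.06 and 5.77 of 10000 peaks in control and 7.05, 7.62 and 8.57 in CKO pSSPC libraries, so that the genotypes did not overlap. In gpSSPCs it had 7.41, 7.53 and 8.18 in control and 7.97, 8.33 and 5.37 in CKO libraries. The populations overlapped, with 7.46 ± 1.09 compared to 6.30 ± 1.75 (SD, n = 6 each), a fold of 1.19 and an exact permutation p of 0.190 (0.297 once adjusted; unadjusted p of 0.2 with the means of pairs). Within control cells the fold was 1.59 without overlap, and within CKO cells it was 0.93 with overlap. For Sox6 and Sox9 the folds were 2.69 and 2.05 within control and 2.90 and 2.73 within CKO cells, all without overlap. Windows higher without overlap were 25.1% of all within control and 28.3% within CKO cells, and 3 against 3 libraries cannot give an exact p below 0.1.

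Between the genotypes, the Sox5 window in pSSPCs had 7.74 ± 0.77 compared to 4.85 ± 0.87 of 10000 peaks (SD, n = 3 each), a fold of 1.6 with an exact permutation p of 0.1, the smallest possible, and 6.79% of windows were higher in CKO pSSPCs without overlap. The change in pSSPCs exceeded that in gpSSPCs by 3.38 of 10000 peaks in a two-sided test of 400 permutations of genotype within the populations (exact permutation p of 0.05, not under the threshold of 0.05; a comparison added after the values were seen). With the differences of same-numbered pairs as the values, 3 against 3, the exact permutation p was 0.1, the smallest possible. For Sox6 and Sox9 the folds were 0.97 and 0.91 in pSSPCs and 1.04 and 1.21 in gpSSPCs, with overlap throughout, and the changes in pSSPCs minus those in gpSSPCs were -0.38 and -0.47 (exact permutation p of 0.42 and 0.07, 3 windows compared).

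**Figure D4:**
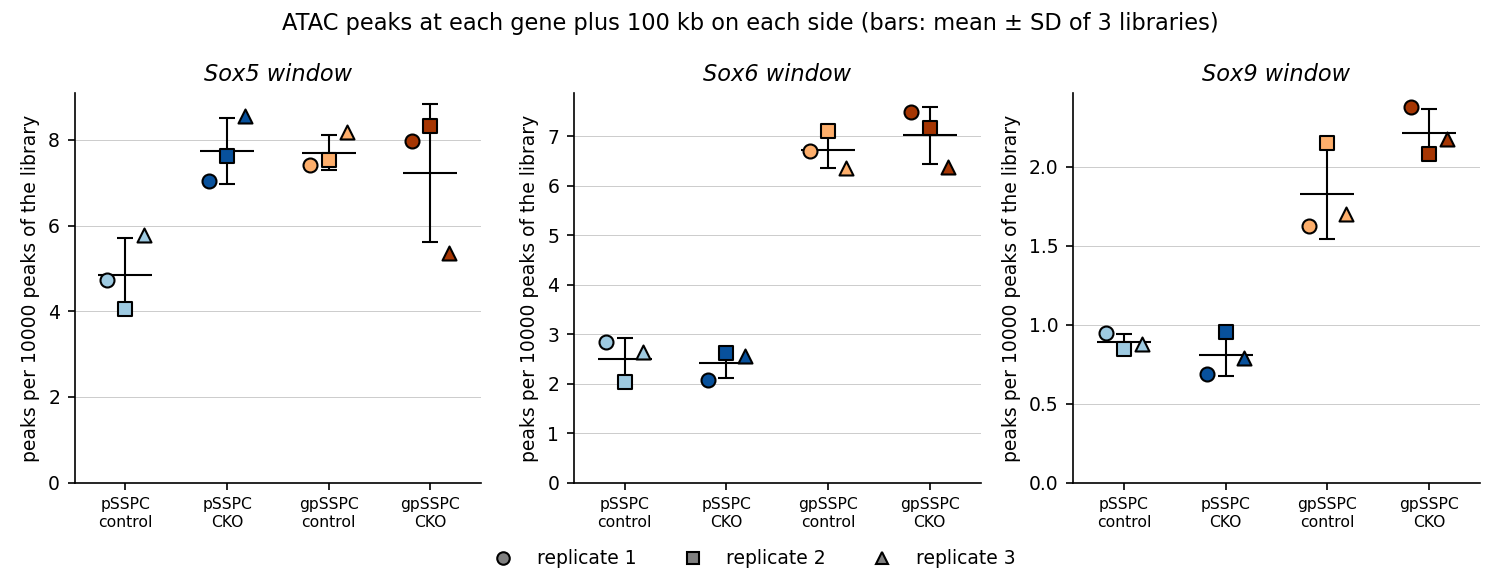
ATAC-seq peaks in the windows of Sox5, Sox6 and Sox9 per 10000 peaks of the library (vertical axis) in the 12 libraries by population and genotype (horizontal axis), with bars for mean ± SD of 3 libraries; circles, squares and triangles are replicates 1, 2 and 3. The Sox6 and Sox9 windows separate gpSSPCs from pSSPCs without overlap, and in the Sox5 window control pSSPCs lie between 4.06 and 5.77 while CKO pSSPCs lie between 7.05 and 8.57.

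Of the 24 target windows, 20 were higher in gpSSPCs without overlap (15% of all windows) and 22 were called higher (24.7% of all). These calls also take the 6 libraries of a population as independent, and 3 against 3 means of pairs could not give one. The Col2a1 window had 3.56 compared to 1.32 of 10000 peaks (fold 2.70) and the Acan window 4.96 compared to 1.20 (fold 4.14), both with the adjusted exact permutation p of 0.00906. The Comp window had 3.46 compared to 3.21 (fold 1.08) and its populations overlapped.

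The peaks of all libraries were merged into 176547 regions, of which 6.11% had a peak in all 6 gpSSPC and no pSSPC libraries, and 3.60% in all 6 pSSPC and no gpSSPC libraries. The Sox9 window held 24 regions, and 6 of these (25%) were of the first kind. Of these, 5 lay upstream, centred at -90.292, -83.838, -75.826, -35.891 and -14.763 kb from the gene's start, and 1 lay at 51.802 kb. The region at -83.838 kb, chr11:112697732-112699040, had summit heights, scaled to the library's tags, of 5.60, 5.77 and 2.78 CPM in control and 7.57, 4.69 and 2.01 in CKO gpSSPCs. The region at -14.763 kb, chr11:112766830-112768092, had 5.76, 5.89 and 2.56 in control and 6.65, 4.69 and 1.88 in CKO gpSSPCs. Replicate 3 was the lowest of its group in both. One region, 68.385 kb downstream, was of the second kind.

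The promoter of Sox9 was open in all libraries. Its region, chr11:112781130-112783176, was the single one in the window with a peak in all 12, with summits of 7.39, 6.78 and 5.54 CPM in control and 5.20, 6.35 and 4.02 in CKO pSSPCs. In gpSSPCs they were 5.97, 6.89 and 3.49 in control and 7.34, 6.53 and 2.19 in CKO. The populations overlapped, and the log2 fold change of gpSSPCs against pSSPCs in control was -0.31 (SE 0.45; limma's adjusted p of 0.83).

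The Sox6 window held 93 regions, and 19 (20.4%) had a peak in all gpSSPC and no pSSPC libraries, compared to 0 with the opposite pattern. Of the 19, 13 were intronic, 3 downstream, 1 exonic, 1 upstream and 1 within 1 kb of a transcript start, chr7:115597157-115598053. They were spread from -72.834 to 667.450 kb from the gene's start. The Sox5 window, with 149 regions, had 7 (4.70%) open in all gpSSPC and no pSSPC libraries and 6 (4.03%) with the opposite pattern. Whether Sox5 lay above or below all regions depended on the processing, since the first share was 17.6% (22 of 125 regions) compared to 12.4% of all regions without replicate 3, and 6.04% (9 of 149) compared to 4.90% where a peak had to cover 50% of the region. Of the 7, 6 lay between 651.956 and 954.364 kb from the gene's start, toward its 3′ end, whereas 5 of the 6 lay between 74.850 and 143.272 kb from it, in introns. The region at the gene's start, chr6:144780543-144783013, had a peak in all 12 libraries. Among targets, the gpSSPC pattern was found in 20 of 54 regions at Acan, 14 of 38 at Col2a1 and 4 of 50 at Comp.

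**Figure D5:**
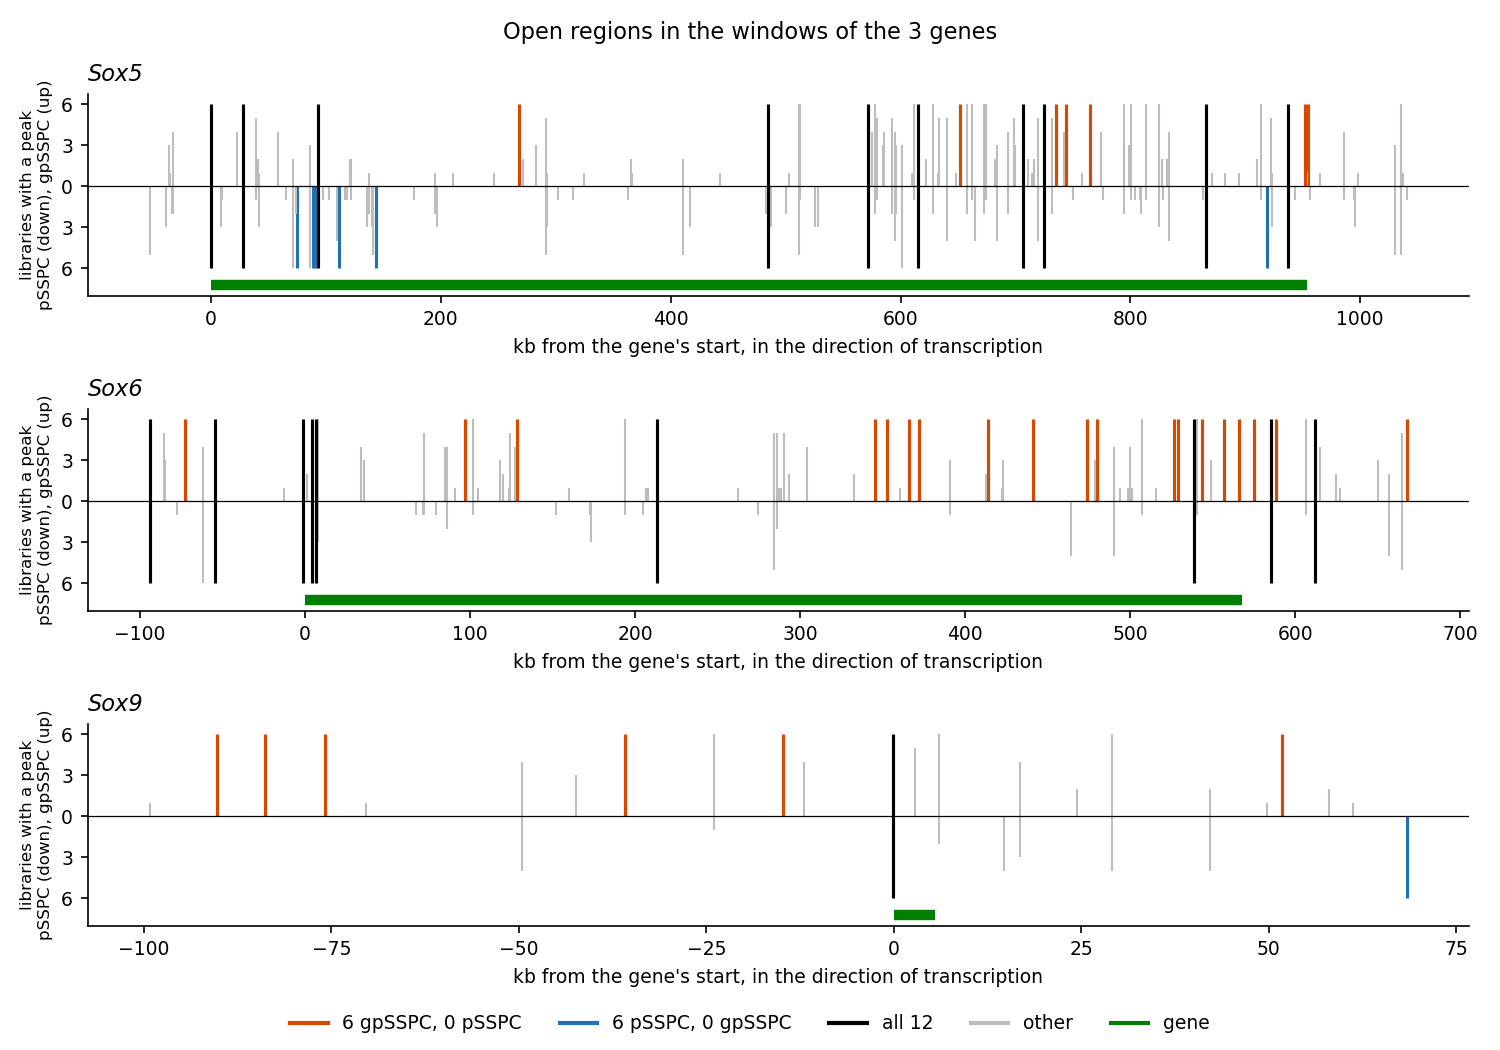
Regions with ATAC-seq peaks in the windows of the 3 genes, by distance in kb from the gene's start in the direction of transcription (horizontal axis); the bars give the number of gpSSPC libraries (up) and pSSPC libraries (down) with a peak, and the green line is the gene. Orange bars are the 7, 19 and 6 regions of Sox5, Sox6 and Sox9 open in all gpSSPC and no pSSPC libraries, blue bars the 6, 0 and 1 with the opposite pattern, and black bars those open in all 12.

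Between the genotypes few regions separated. In gpSSPCs 1.32% of all regions had a peak in all control and no CKO libraries, and so had 2 of 83 at Sox6, 0 of 102 at Sox5 and 0 of 22 at Sox9. In pSSPCs 2.81% of all regions had a peak in all CKO and no control libraries, and so had 4 of 97 at Sox5, 0 of 35 at Sox6 and 0 of 9 at Sox9. The pSSPC libraries also differed in their number of peaks, from 59186 to 79692 in control and from 72346 to 101564 in CKO. In gpSSPCs these numbers did not overlap, with 88051 to 98518 in control and 68916 to 84068 in CKO libraries. The part of the number of peaks in either result was not tested.

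Heights could be compared in the 25193 regions with a peak in every library, 20 of them in the windows of the trio. In control gpSSPCs against pSSPCs limma called 2.38% of all regions higher and 3.72% lower, and 1 of the 20 was higher and 0 were lower. This was an intronic region of Sox5, chr6:144296952-144298291, 484.356 kb from the gene's start. Its summits were at 0.933, 0.735 and 1.10 CPM in control pSSPCs and 5.29, 5.28 and 2.63 in control gpSSPCs, without overlap. The log2 fold change was 2.09 (SE 0.47; limma's adjusted p of 0.0011), and the CKO libraries had 1.45, 1.79 and 1.67 in pSSPCs and 6.34, 5.02 and 1.66 in gpSSPCs, which overlapped. Without replicate 1 or replicate 2 of each group, 0 of the 20 and 0 of all regions were called, and without replicate 3 it was 8 of the 20 (7 higher and 1 lower), compared to 13.8% of all regions higher and 9.76% lower. With the replicate number as a block limma called 4391 of all regions (6.11% higher and 11.3% lower), and 4 of the 20 were higher and 1 was lower. After quantile normalization it called 8646 (17.3% higher and 17.1% lower), and 9 of the 20 were higher and 2 lower, so the number called depended on the normalization. Between the genotypes limma called 0 regions in either population, whereas 66 in gpSSPCs and 309 in pSSPCs had an unadjusted p under 0.05. With the block 10 of all regions were called in pSSPCs and 0 of the 20. After quantile normalization 249 were called in pSSPCs, with 1 of the 20 higher and 1 lower in CKO cells, and without replicate 3 it was 310, with 1 of the 20 higher.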

How the data were processed

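Per the labels and the study's methods, RNA was read from sorted cells by a Smart-seq2 protocol with molecular identifiers, and the authors deposited counts per gene without normalization, after STAR, HTSeq and removal of duplicates. The authors deposited scRNA-seq UMI counts per gene and cell, made on mm10 (Cell Ranger 3.1.0 per the file headers). The authors called ATAC-seq peaks per library with MACS 2.2.7.1 (shift -100, extension 200, q-value cutoff 0.05) after Bowtie2 and deposited the summit pileup signal, which is not scaled for depth, the fold enrichment ratio, and −log10 p and q values. The fold enrichment and the −log10 p values were not used in tests.

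The members and lists were chosen with earlier results of these data known. Bulk counts were tested with edgeR 4.0.16 (TMM, filterByExpr, quasi-likelihood, Benjamini-Hochberg over 13173 genes, threshold 0.05; R 4.3.3). The fit had 8 samples (4 residual degrees of freedom, and 3 once replicate numbers entered as a block). Deviations from group means of same-numbered samples had correlations of 0.55 to 0.61, and the labels do not say what they share. Of 53801 identifiers, 53620 matched a symbol. DESeq2 1.42.0 was an alternative. CPM were scaled by TMM.

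Cells were clustered with Seurat 5.3.0 (study's settings: 3 cells per gene, 200 genes per cell, 20 and 22 components, resolution 0.14 and 0.15), without 7 genes among 2000 variable features. A class needed markers detected in 25% of cells. No doublet caller was run, and leaving out cells above the 98th percentile of UMIs was an alternative. Shares have 95% Clopper-Pearson and levels 95% Poisson intervals, and a count of 0 was read as allowing 3.

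ATAC-seq regions were peaks merged across libraries, open in a library with an overlap of at least 1 bp. In heights, same-numbered control and CKO libraries of a population deviated together from their group means (correlations of 0.11 to 0.51 in 6 pairs), whereas same-numbered libraries of different populations did not (-0.08 to 0.17 in 12 pairs), and the labels do not say what they share. Means of these pairs were an alternative added after this was seen. Windows were compared by exact permutation tests, with Benjamini-Hochberg over all coding genes' windows in place of the 3 planned. Heights were log2 values of the summit signal in CPM of the library's tags plus 0.1, tested with limma 3.58.1. Named genes are the trio, Col2a1, Acan, Comp, up to 6 other targets and 4 genes of each other list per comparison with an adjusted p under 0.05 (here with the block), by largest change, Sox genes that passed the filter or are named in the rule, and the 5 genes most like each member (over classes with at least 15 cells and genes in at least 5% of the cells of a sum, log2 of CPM plus 10). No column of other samples was present. The fits were tested on simulated data.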

Additional observations from a re-analysis of the deposited data

Results flagged for a closer look

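In the Sox5 window, the gpSSPC library of CKO replicate 3 had 5.37 of 10000 peaks, while the other 5 gpSSPC libraries lay between 7.41 and 8.33, and its gap to the nearest of them was 0.689 of the whole range of 6 libraries. It had 68916 peaks, the fewest of the gpSSPC libraries, from 39801835 tags after filtering, and the lowest median fold enrichment of all 12 libraries (4.44). Without replicate 3 the fold of CKO against control gpSSPCs in this window was 1.09 in place of 0.94. The part of library quality in this value was not tested. Chance marks about 1 in 20 groups in this way.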

How the results depend on the processing

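Each RNA group had 2 samples, and each scRNA-seq group had 1 library and so no test. The part of depth and number of samples in the number of calls was not tested. The number of genes called by edgeR without the block was 0 in each comparison. For gpSSPCs against pSSPCs it became 559 in control and 365 in CKO cells with each library as a sample, 251 and 119 with DESeq2, 89 and 56 without the filter, and 476 and 311 with the replicate block. For the genotypes in gpSSPCs, in pSSPCs and the difference between these, the block gave 8, 13 and 2 genes, and without the filter pSSPCs gave 5 and the difference 2. The direction of the trio between the populations was the same in all alternatives run. Of 48 values each the call was gained 6 times in control and 5 times in CKO cells, and the block changed no other call of the trio. Genotype effects of the trio changed sign: with RLE and DESeq2 factors Sox5 in gpSSPCs was 0.0052 and 0.0056 and Sox6 in pSSPCs -0.013 and -0.0058. On leaving out samples the log2 values ranged in gpSSPCs from -0.20 to 0.12 for Sox5, -0.66 to 0.15 for Sox6 and -0.43 to 0.26 for Sox9, in pSSPCs from -0.16 to 0.23 for Sox6 and -0.94 to 0.61 for Sox9, and for the difference between the populations from -0.76 to 0.058 for Sox6 and -0.73 to 0.82 for Sox9. RLE moved the median difference of all genes to 0.13. Thinning to 1000 UMIs gave Sox9 shares of 59.7% and 44.8% at 8 weeks (Prx1-Cre and Osx-Cre) and 34.9% in the 16-week control. The 16-week Sox9 level in CPM became 960 in control with the cluster split again or at resolution 0.5 and 1006 without cells above the 98th percentile, and 866, 881 and 1029 in CKO. The fold of CKO against control in ATAC-seq windows passed 1 for Sox5 in gpSSPCs (0.86 to 1.09 on leaving out replicates), for Sox6 in gpSSPCs (0.990 with 500 kb, 0.862 unscaled) and in pSSPCs (1.04 at −log10 q of at least 5, 1.24 unscaled, 0.847 to 1.11 on leaving out replicates), and for Sox9 in pSSPCs (1.10 with 500 kb, 1.17 unscaled, 0.811 to 1.01). Regions open in all gpSSPC libraries alone were 12 at Sox6 where a peak had to cover 50% of the region, and 7 to 22 at Sox5 on leaving out replicates (22 without replicate 3). Regions called by height were 8646, 4 and 249 after quantile normalization (gpSSPCs against pSSPCs in control, genotype in gpSSPCs, genotype in pSSPCs), 4391 and 10 with the block for the first and last, and 0 to 5929, 0 to 1 and 0 to 310 on leaving out replicates (5929 and 310 without replicate 3). With same-numbered ATAC-seq libraries of a population averaged, the window folds between the populations of 2.79 for Sox6 and 2.38 for Sox9 were no longer past the threshold, which 3 against 3 values cannot reach. The cause of these changes was not tested.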
